A study of Mus musculus with 8 samples.

Results

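The collagens and matrix glycoproteins described here were 58 genes of 35906 with counts in the tables. They were chosen by name: 44 symbols of the form Col, number, a, number, and 14 listed genes for proteoglycans (Dcn, Lum, Bgn, Vcan), fibre-forming and matricellular glycoproteins (Fn1, Fbn1, Sparc, Postn, Tnc, Thbs1, Thbs2) and lysyl oxidases (Lox, Loxl1, Loxl2). RNA came from macrophages of BALB/c wild-type mouse liver, sorted as CD45+, F4/80+, CD31- cells after digestion with collagenase. One group of 4 samples was from mice given vehicle and the other of 4 from mice given carbon tetrachloride (CCl4), a hepatocyte toxin used to produce liver fibrosis. The sources used here do not give the age of the mice or how much CCl4 they received and for how long, and no label says that each library is 1 mouse. The p-values therefore measure only the spread between these samples, some of which may be technical.

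Collagens are secreted proteins of 3 chains wound into a helix. Fibrillar collagens such as types I, III and V form the fibres of scars, type IV forms the sheet of basement membranes and type VI forms beaded filaments around cells. Small proteoglycans such as decorin coat the fibres, fibronectin guides their assembly and lysyl oxidases crosslink them. In injured liver most of this matrix is made by activated hepatic stellate cells, the vitamin A-storing pericytes of the sinusoid, and by portal fibroblasts. Macrophages are better known for taking matrix up and degrading it, although they make fibronectin and thrombospondin 1.

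Total estimated counts were between 19489104 and 26196063 per library. Levels are given in CPM, which scales counts by library size and TMM factors, and the call is an adjusted p under 0.05 in edgeR's quasi-likelihood test with Benjamini-Hochberg adjustment over 15212 genes. The macrophage markers summed to between 44370 and 53460 CPM in vehicle and 61700 and 82080 CPM in CCl4 libraries. Lyz2, per length the most abundant of these 12 markers, was among the 2 that rose, while 5 fell. Their median log2 fold change was -0.12, so the higher sum is not a rise shared by the list. Adgre1, which encodes F4/80, was at 964 to 1430 CPM in the vehicle libraries and at 1041 to 1414 CPM in the CCl4 libraries. Vehicle 2 and CCl4 4 had high CPM on olfactory and vomeronasal receptor genes (3132 and 3072, against 611 to 1553 elsewhere). On the second principal component CCl4 4, vehicle 2 and CCl4 1 lay below 0 and the other 5 libraries above. Mitochondrial genes took 1.91% to 5.31% of counts in vehicle and 0.763% to 1.16% in CCl4 libraries.

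Of the 58 genes, 48 passed the filter on low counts and were tested. In CCl4 libraries 12 were higher and 0 lower, which is 25.0% of those tested. Over all tested genes 8.93% were higher and 6.26% lower. The 12 were 9 collagen genes (Col1a1, Col1a2, Col3a1, Col5a2, Col6a1, Col6a2, Col6a3, Col6a6, Col15a1) and Thbs1, Lox and Loxl1. The median log2 fold change of the 48 was 0.55, with 32 above 0. That of all tested genes was -0.03. DESeq2 called 13 members higher, the 12 and Vcan, and limma-voom called 12. Without vehicle 2 and CCl4 4 the test called 14 members higher, the 12 together with Col4a5 and Vcan, and 1 lower, Col13a1. Without CCl4 3 it called 7 higher: Col1a1, Col1a2, Col3a1, Col5a2, Col6a1, Col6a3 and Thbs1.

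**Figure D1:**
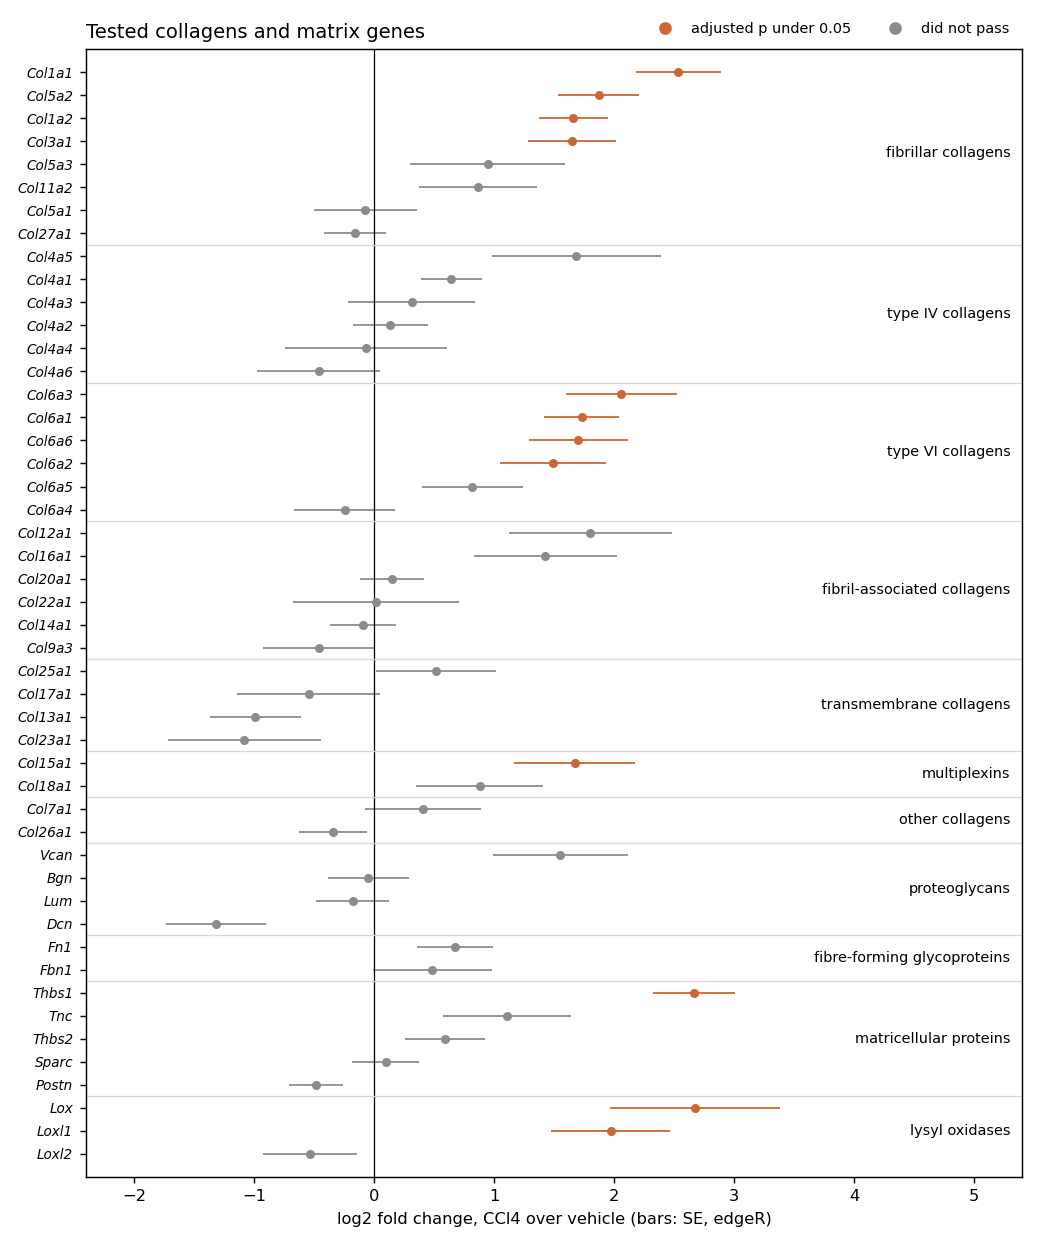
Log2 fold change (CCl4 over vehicle, horizontal axis; bars are standard errors from edgeR) of the 48 tested genes, grouped by class on the vertical axis. Genes with an adjusted p under 0.05 are orange and all lie to the right of 0; 4 are fibrillar collagens and 4 type VI collagens, while none of the 6 type IV collagens is among them.

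The fibrillar collagen genes had the highest summed level of the collagen classes, 55.2 ± 23.4 CPM in vehicle and 164.8 ± 56.7 CPM in CCl4 libraries (SD, n = 4). Of 11, 8 were tested and 4 rose: both chains of type I, the single chain of type III and the alpha 2 chain of type V. Col1a1, the alpha 1 chain of type I collagen, was at 2.88, 4.55, 4.07 and 8.24 CPM in vehicle libraries 1 to 4 and at 15.6, 29.2, 43.1 and 26.7 CPM in CCl4 libraries 1 to 4, the order kept throughout. All CCl4 libraries lay above all vehicle libraries, with CCl4 3 the highest, and the log2 fold change was 2.54 (SE 0.36, adjusted p = 0.000666, edgeR). Col1a2, the partner chain in the type I trimer, was at 6.49, 13.2, 8.50 and 13.7 CPM in vehicle and at 20.5, 33.7, 47.3 and 30.9 CPM in CCl4 libraries. The groups again did not overlap and the log2 fold change was 1.66 (SE 0.29, adjusted p = 0.00245, edgeR).

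Col3a1, which encodes the collagen of fine reticular fibres, was at 16.4, 23.4, 17.6 and 51.4 CPM in vehicle and at 51.9, 85.7, 124.4 and 79.0 CPM in CCl4 libraries. Vehicle 4 came within 1 CPM of CCl4 1, and the log2 fold change was 1.65 (SE 0.37, adjusted p = 0.0105, edgeR). Per length it was the most abundant of the 44 collagens over the 8 libraries, at a mean of 9.33 TPM (a unit corrected for transcript length) in vehicle and 26.6 TPM in CCl4 libraries. Col5a2, a chain of the type V collagen that nucleates type I fibres, was at 1.96, 1.49, 1.46 and 2.40 CPM in vehicle and at 3.84, 5.21, 10.1 and 7.71 CPM in CCl4 libraries. Its log2 fold change was 1.87 (SE 0.34, adjusted p = 0.00318, edgeR) and the groups did not overlap. Its partner Col5a1 did not pass: vehicle libraries held 3.52, 6.04, 1.70 and 5.36 CPM and CCl4 libraries 2.40, 3.47, 6.88 and 3.04 CPM (log2 fold change -0.07, SE 0.43). The calls for Col1a1, Col1a2, Col3a1 and Col5a2 held when any 1 library was left out. They held too in the other alternatives run for each gene except the log2 FPKM test without a filter (Col5a2 was not tested in the filtered FPKM tests), where adjusted p (limma) was 0.0645, 0.0948, 0.157 and 0.151.

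**Figure D2:**
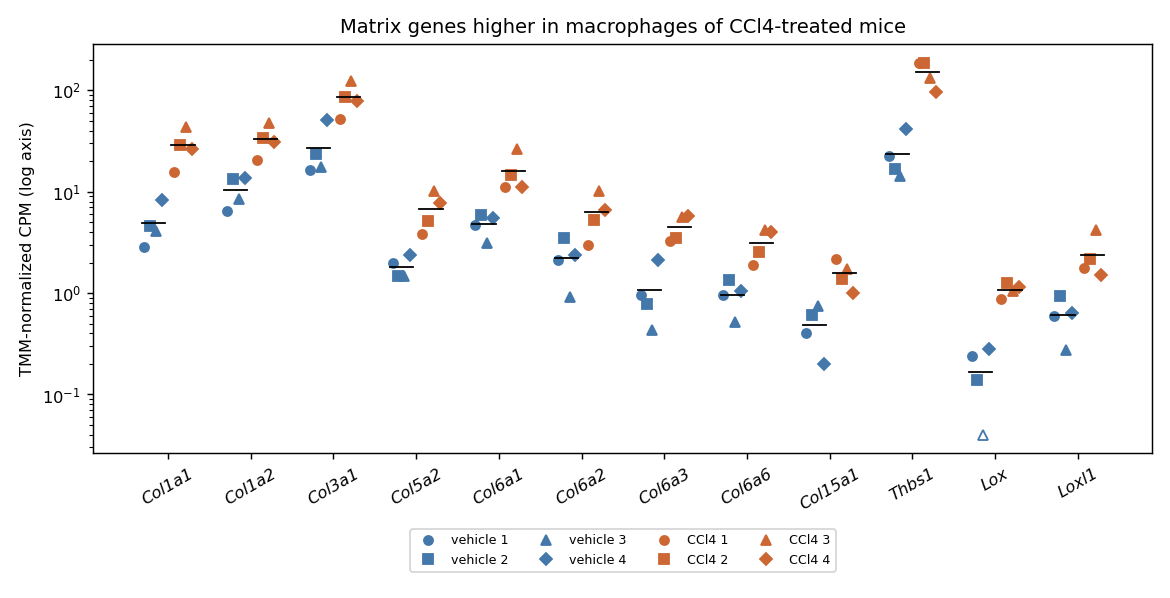
TMM-normalized CPM (vertical log axis) of the 12 genes that rose, in each vehicle library (blue) and CCl4 library (orange), with 1 marker shape per replicate number and a black line at each group mean. The open triangle at the bottom is Lox in vehicle 3, which had 0 counts; Col6a2 is the gene of the 12 whose groups overlap.

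The balance of the type I chains was examined after their values were seen. The TPM ratio of Col1a1 to Col1a2 was 0.367, 0.293, 0.383 and 0.536 in vehicle and 0.680, 0.748, 0.808 and 0.758 in CCl4 libraries. Every CCl4 library was above every vehicle library. The log2 differences and tests used ratios of estimated counts, which are not corrected for length. For Col1a1 to Col1a2 the log2 difference was 0.89. The exact two-sided permutation p was 0.0286, the smallest that 4 against 4 can give, and 0.0571 after adjustment over 4 ratios. The adjustment does not cover the choice of this pair from values already seen. The count ratio of Col6a1 to Col6a2 differed by 0.16 on the log2 scale (exact permutation p = 0.629, adjusted 0.629). The count ratio of Col4a1 to Col4a2 differed by 0.47 (exact permutation p = 0.0857, adjusted 0.114).

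All 6 type VI genes were tested and 4 rose. The type VI microfibril is built from alpha 1 and alpha 2 chains together with a longer chain, for which alpha 3 and the other type VI chains are alternatives. Col6a1 was at 4.68, 5.85, 3.12 and 5.48 CPM in vehicle and at 11.2, 14.7, 26.5 and 11.1 CPM in CCl4 libraries. The groups did not overlap and the log2 fold change was 1.73 (SE 0.31, adjusted p = 0.00292, edgeR). Col6a3 was at 0.961, 0.789, 0.435 and 2.12 CPM in vehicle and at 3.24, 3.51, 5.61 and 5.71 CPM in CCl4 libraries, again without overlap (log2 fold change 2.06, SE 0.46, adjusted p = 0.0105, edgeR). Its call was lost with length-scaled TPM counts (adjusted p = 0.0991, edgeR) and in the tests on FPKM.

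Col6a2 was at 2.12, 3.53, 0.910 and 2.36 CPM in vehicle and at 2.96, 5.24, 10.2 and 6.66 CPM in CCl4 libraries. Here vehicle 2 lay above CCl4 1, and the log2 fold change of 1.49 (SE 0.44) passed narrowly (adjusted p = 0.0419, edgeR). That call ended when any of vehicle 1, 3 or 4 or CCl4 2, 3 or 4 was left out, with adjusted p up to 0.133 (edgeR). It also ended with library size only (0.0651), with upper-quartile factors (0.0663) and in the tests on FPKM (limma, adjusted p up to 0.223). Col6a6 was at 0.961, 1.35, 0.514 and 1.04 CPM in vehicle and at 1.90, 2.52, 4.17 and 3.995 CPM in CCl4 libraries (log2 fold change 1.70, SE 0.41, adjusted p = 0.0162, edgeR). Leaving out CCl4 3 ended its call (adjusted p = 0.0537, edgeR). The other type VI chains, Col6a5 and Col6a4, had log2 fold changes of 0.82 and -0.24 and did not pass.

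Promoter windows from RefSeq (GRCm38.p6) were matched for 42 of the 58 genes. They are shown for 2 genes that rose and for Bgn, which did not pass, to place the start regions of genes with different values side by side. Each run is the 250 bases before the annotated start on the gene's strand, read 5′ to 3′, and holds no exon of the GENCODE M21 annotation. Capitals mark matches on either strand to TATAAA, the TATA box, or GGGCGG, the GC box; the other motifs searched, CCAAT and TGANTCA, are not in these windows. Col3a1 lies at chr1:45311288-45311537 on the plus strand, Col6a3 at chr1:90843972-90844221 on the minus strand and Bgn at chrX:73483351-73483600 on the plus strand.
Col3a1: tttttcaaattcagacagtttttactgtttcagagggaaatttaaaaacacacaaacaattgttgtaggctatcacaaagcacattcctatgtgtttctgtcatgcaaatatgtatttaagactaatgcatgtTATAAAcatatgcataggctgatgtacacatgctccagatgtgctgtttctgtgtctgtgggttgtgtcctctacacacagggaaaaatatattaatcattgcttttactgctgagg
Col6a3: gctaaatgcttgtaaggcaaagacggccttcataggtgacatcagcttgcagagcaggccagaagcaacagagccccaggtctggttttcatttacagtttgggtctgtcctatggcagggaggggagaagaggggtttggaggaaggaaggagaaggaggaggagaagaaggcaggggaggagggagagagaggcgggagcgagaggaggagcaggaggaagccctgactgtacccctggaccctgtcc
Bgn: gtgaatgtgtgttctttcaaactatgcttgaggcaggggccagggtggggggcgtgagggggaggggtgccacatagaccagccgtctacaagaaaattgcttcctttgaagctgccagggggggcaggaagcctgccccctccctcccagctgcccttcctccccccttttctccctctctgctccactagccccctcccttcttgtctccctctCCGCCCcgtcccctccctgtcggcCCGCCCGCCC

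The Col3a1 window held 1 TATAAA, starting 117 bases before the start. The Bgn window held 3 GGGCGG on the opposite strand, at 34, 10 and 6 bases before the start, of which the last 2 overlap. Of the 7 genes that rose and have a window, 1 held CCAAT, 1 TATAAA, 3 GGGCGG and 1 TGANTCA. Of the 26 with a window that did not pass, 12, 6, 18 and 0 did. Over 32851 windows of the same length 33.8%, 12.4%, 32.7% and 6.75% held these motifs. A match of letters is a description of the window and was not tested as a binding site.

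None of the 6 type IV genes, all tested, passed. Col4a1 and Col4a2 encode the chains of the common basement membrane network and share a start region, head to head, with 22 exon bases in common on opposite strands. Col4a1 was at 14.1, 11.8, 11.3 and 21.2 CPM in vehicle and at 20.0, 15.5, 31.9 and 24.2 CPM in CCl4 libraries (log2 fold change 0.65, SE 0.25, adjusted p = 0.118, edgeR). The groups overlapped, and the gene passed without vehicle 4 (adjusted p = 0.0415, edgeR). Col4a2 was at 9.49, 9.89, 6.21 and 17.1 CPM in vehicle and at 11.9, 8.79, 17.3 and 9.04 CPM in CCl4 libraries (log2 fold change 0.14, SE 0.31), a value whose sign depended on the normalization.

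The remaining collagen classes held 1 gene that rose. Col15a1, whose protein joins basement membranes to the matrix beneath, was at 0.401, 0.604, 0.751 and 0.200 CPM in vehicle and at 2.17, 1.38, 1.72 and 1.00 CPM in CCl4 libraries. The groups did not overlap, but the call (log2 fold change 1.67, SE 0.50, adjusted p = 0.0453, edgeR) was lost on leaving out any library other than CCl4 4, with adjusted p up to 0.156. It was also lost with library size only, with upper-quartile factors, without a filter, with length-scaled TPM counts and in the FPKM tests (adjusted p from 0.06005 to 0.670, edgeR and limma). Its relative Col18a1, the source of endostatin, did not pass (log2 fold change 0.88, SE 0.53, adjusted p = 0.316, edgeR). Of 6 tested fibril-associated collagens none passed. The most abundant of them, Col14a1, was at 16.9, 18.9, 10.6 and 25.5 CPM in vehicle and at 11.0, 17.8, 23.5 and 15.3 CPM in CCl4 libraries (log2 fold change -0.09, SE 0.28). Its groups covered much the same range.

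None of the 4 transmembrane collagens passed, and 3 of the 4 log2 fold changes were below 0. Col13a1, a membrane collagen of cell adhesion sites, was at 2.48, 4.27, 3.60 and 4.32 CPM in vehicle and at 1.25, 1.06, 2.08 and 3.00 CPM in CCl4 libraries (log2 fold change -0.99, SE 0.38, adjusted p = 0.107, edgeR). It passed without CCl4 4 (adjusted p = 0.0345, edgeR) and without CCl4 4 and vehicle 2 together (0.0437). In all, 10 collagens did not pass the filter, and 6 of these had 10 or more counts in some library. Col11a1 had 7, 15, 6 and 16 counts in vehicle and 2, 1, 3 and 20 in CCl4 libraries. Col19a1 reached 16 counts, Col24a1 12, Col28a1 10, Col8a1 14 and Col8a2 11. The other 4, Col2a1, Col9a1, Col9a2 and Col10a1, stayed under 10 counts in every library.

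Part of the collagen signal was not assigned to coding transcripts. For Col26a1, 0% of 760 counts in all libraries was assigned to transcripts that M21 annotates as protein coding. Its levels were 2.96, 6.27, 4.31 and 4.72 CPM in vehicle and 4.12, 3.75, 2.67 and 3.85 CPM in CCl4 libraries. They cannot be read as levels of collagen message, although the assignment is kallisto's estimate and transcript models can differ. The coding share was 9.74% for Col27a1, 13.9% for Col4a6, 17.5% for Col25a1, 16.8% for Col19a1 and 23.4% for Col11a1. None of these 6 was among the genes that rose. With coding transcripts alone, an alternative chosen after seeing the data, 12 members were called higher, with Col16a1 gained and Col15a1 lost (adjusted p = 0.0542, edgeR). Shares on the leading transcript were tested for 8 members and none differed after adjustment. The Col6a2-201 share was 68.9%, 60.9%, 46.3% and 78.1% in vehicle and 82.3%, 94.5%, 91.5% and 85.6% in CCl4 libraries (exact permutation p = 0.0286, the smallest possible, adjusted 0.114). The Col27a1-203 share, a retained-intron transcript, gave the same p values, at 48.0% ± 6.83 in vehicle and 67.1% ± 7.27 in CCl4 libraries (SD, n = 4).

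None of the 4 proteoglycan genes passed. Dcn encodes decorin, which binds collagen fibrils and TGF-beta, and at a mean of 117 TPM over the 8 libraries it was the most abundant of the 58 genes. It was at 135.6, 391.9, 71.3 and 229.4 CPM in vehicle and at 63.6, 78.0, 115.3 and 75.6 CPM in CCl4 libraries. Vehicle 3 lay within the CCl4 range and the other 3 vehicle libraries above it. The log2 fold change was -1.32 (SE 0.42, adjusted p = 0.0547, edgeR), and it passed without vehicle 3 (0.0103), with library size alone (0.0329), with upper-quartile factors (0.0455) and without a filter (0.00524). The TPM ratio of Dcn to Col1a2, chosen after seeing the values, was 67.7, 95.3, 25.2 and 57.4 in vehicle and 10.6, 7.55, 8.28 and 8.38 in CCl4 libraries. These ranges did not overlap. On ratios of estimated counts the log2 difference was -2.75 (exact permutation p = 0.0286, adjusted 0.0571).

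The other proteoglycans moved less. Lum, which encodes the fibril-spacing proteoglycan lumican, was at 9.01, 24.2, 8.50 and 19.3 CPM in vehicle and at 12.1, 14.2, 14.03 and 13.5 CPM in CCl4 libraries (log2 fold change -0.18, SE 0.31). All CCl4 libraries fell between the lower and the upper pair of vehicle libraries. Bgn, for biglycan, was at 15.7, 28.2, 8.46 and 20.9 CPM in vehicle and at 13.5, 15.6, 28.0 and 13.8 CPM in CCl4 libraries (log2 fold change -0.05, SE 0.34). For both genes the sign depended on which libraries were included. Vcan, for the large proteoglycan versican, was at 0.4405, 2.83, 0.712 and 1.68 CPM in vehicle and at 4.07, 4.18, 1.76 and 6.56 CPM in CCl4 libraries. CCl4 3 lay below vehicle 2, and the log2 fold change of 1.55 (SE 0.56) did not pass (adjusted p = 0.0902, edgeR). Vcan passed with DESeq2 (adjusted p = 0.0290) and without vehicle 2 (0.0234, edgeR). It was below 0 with length-scaled TPM counts (-0.39, edgeR) and in the FPKM table (-0.74 on the log2(FPKM + 1) scale).

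Of the 5 matricellular genes, which encode matrix proteins that signal to cells rather than build fibres, 1 rose. Thbs1 encodes thrombospondin 1, which binds Cd36 and Cd47 and activates latent TGF-beta. It was at 22.5, 16.9, 14.2 and 41.6 CPM in vehicle and at 188.1, 185.5, 133.8 and 95.4 CPM in CCl4 libraries. The groups did not overlap and the log2 fold change was 2.66 (SE 0.34, adjusted p = 0.000361, edgeR), the lowest adjusted p of the 58 genes. Thbs1 was the single gene of the 12 called in each of the 20 alternatives run. CCl4 3, where 8 of the 12 genes that rose had their highest level, had less Thbs1 than CCl4 1 and CCl4 2. How many of all tested genes were highest in CCl4 3 was not counted. Per length Thbs1 went from a mean of 5.297 TPM in vehicle to 32.1 TPM in CCl4 libraries, above Col3a1.

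The other 4 matricellular genes did not pass. Sparc, for osteonectin, a collagen-binding glycoprotein, was at 28.2, 60.5, 24.8 and 43.2 CPM in vehicle and at 31.5, 40.4, 57.8 and 37.9 CPM in CCl4 libraries (log2 fold change 0.10, SE 0.28), with the sign depending on the normalization. Postn, for periostin, was at 13.6, 12.1, 11.0 and 10.1 CPM in vehicle and at 10.1, 7.06, 10.7 and 5.66 CPM in CCl4 libraries (log2 fold change -0.48, SE 0.22, adjusted p = 0.180, edgeR). Thbs2 was at 2.80, 2.79, 2.41 and 5.80 CPM in vehicle and at 5.69, 4.10, 7.11 and 3.90 CPM in CCl4 libraries (log2 fold change 0.59, SE 0.33, adjusted p = 0.282, edgeR), with vehicle 4 alone inside the CCl4 range. Tnc, for tenascin C, had a log2 fold change of 1.11 (SE 0.53, adjusted p = 0.203, edgeR).

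Among the lysyl oxidases, the copper enzymes that start crosslinks between collagen and elastin chains, 2 of 3 rose, both from low levels. Lox was at 0.240, 0.139, 0 and 0.280 CPM in vehicle, where vehicle 3 had 0 counts and the 3-count floor was between 0.119 and 0.139 CPM, and at 0.879, 1.26, 1.04 and 1.14 CPM in CCl4 libraries. The groups did not overlap (log2 fold change 2.67, SE 0.71, adjusted p = 0.0255, edgeR), but the call ended without vehicle 1, CCl4 1, CCl4 2 or CCl4 3 (adjusted p up to 0.0684). Loxl1 was at 0.601, 0.929, 0.277 and 0.640 CPM in vehicle and at 1.76, 2.17, 4.17 and 1.52 CPM in CCl4 libraries (log2 fold change 1.97, SE 0.50, adjusted p = 0.0195, edgeR). Leaving out vehicle 1, 3 or 4 or CCl4 3 ended that call (adjusted p up to 0.0743). Loxl2 did not pass, with 2.19 ± 0.538 CPM in vehicle and 1.52 ± 0.603 CPM in CCl4 libraries (SD, n = 4; log2 fold change -0.53, SE 0.40).

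Fn1 encodes fibronectin, the glycoprotein on which collagen fibres are laid down. It was at 254, 331, 206 and 606 CPM in vehicle and at 511, 674, 378 and 672 CPM in CCl4 libraries. Vehicle 4 lay inside the CCl4 range and the log2 fold change of 0.68 (SE 0.32) did not pass (adjusted p = 0.186, edgeR), although it did without vehicle 4 (0.0189). The other gene of this class, Fbn1, for the microfibril protein fibrillin 1, had a log2 fold change of 0.49 (SE 0.49, adjusted p = 0.587, edgeR). The Fn1 counts were spread over several transcripts. Fn1-202, annotated as a retained-intron transcript of 4022 bases from the 3′ part of the gene (chr1:71585526-71609567, mm10, minus strand, 17 exons), held most Fn1 counts in vehicle 2. On coding transcripts alone Fn1 was at 204, 56.8, 162.5 and 491 CPM in vehicle and at 416, 468, 336 and 576 CPM in CCl4 libraries, so vehicle 2 moved from second to lowest of the vehicle group.

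**Figure D3:**
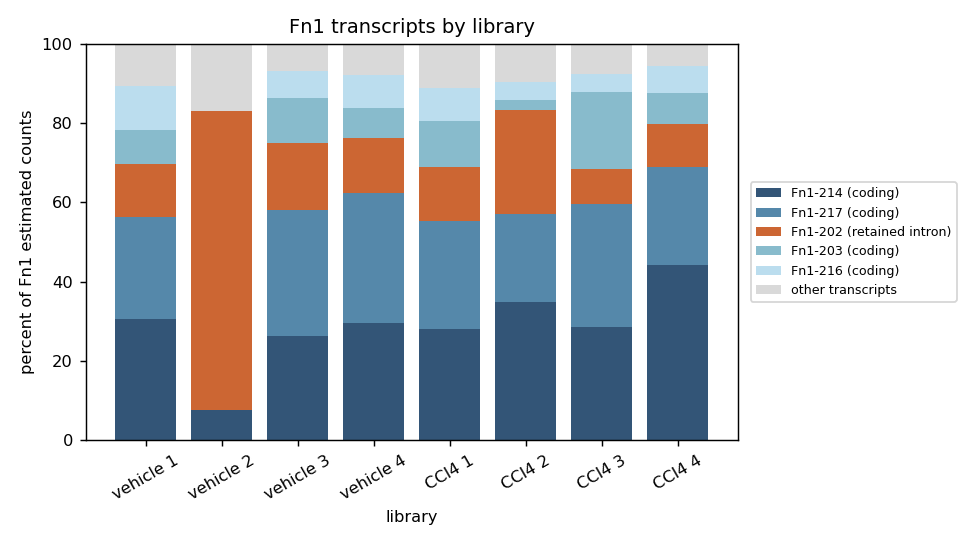
Share of Fn1 estimated counts (percent, vertical axis) on each transcript in the 8 libraries (horizontal axis), with coding transcripts in blue, the retained-intron transcript Fn1-202 in orange and all others in grey. Vehicle 2 is the library in which Fn1-202 takes most of the counts; the leading coding transcript Fn1-214 has 7.62% there and 26.4% to 44.3% in the other 7.

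Fibronectin messages that keep the extra domain exons, EDA and EDB, mark the cellular form made in wounds and scars, whereas the plasma form made by hepatocytes lacks both. The EDA exon is shown because the full-length coding transcripts divide by it: 4 of 7 contain it. It is exon 32 of 45 of Fn1-214, with 270 bases of coding sequence at chr1:71603660-71603929 (mm10, minus strand), read here from the M21 transcript with no letters capitalised.
Fn1 EDA exon: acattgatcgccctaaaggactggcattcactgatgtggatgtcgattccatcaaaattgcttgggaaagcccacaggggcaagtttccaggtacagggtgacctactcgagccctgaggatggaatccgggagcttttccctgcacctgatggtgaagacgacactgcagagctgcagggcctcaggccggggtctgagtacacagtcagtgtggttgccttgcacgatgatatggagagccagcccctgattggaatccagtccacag

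Transcripts with EDA held 43.1%, 100%, 36.8% and 39.9% of full-length coding counts in vehicle and 42.0%, 57.8%, 37.9% and 54.4% in CCl4 libraries. Vehicle 2 stood alone, with 1221 such counts against 4109 to 12253 in the other libraries, and the remaining values of the groups overlapped. EDB was included in 0.392% to 2.65% of those counts. These shares were computed after the transcript values were seen, are estimates that kallisto makes by dividing reads among similar transcripts, and were not tested.

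Genes that act on collagen were read from the same test. Of 29 tested genes for collagen folding, modification and secretion, 4 rose and 2 fell, with a median log2 fold change of 0.10. Tmem38b, an endoplasmic reticulum potassium channel needed for collagen assembly, rose from 11.9 to 40.4 CPM (mean; log2 fold change 1.76, adjusted p = 0.000297, edgeR). Fkbp10, a collagen chaperone, rose from 1.06 to 3.12 CPM, Plod2, a lysyl hydroxylase, from 0.216 to 0.939 CPM and the lysyl oxidase relative Loxl3 from 11.3 to 18.5 CPM, with the opposite sign in the FPKM tests. Leaving out 1 library ended these 3 calls. For Fkbp10 it was vehicle 1, vehicle 3 or CCl4 3 (adjusted p up to 0.0685, edgeR) and for Plod2 any library except vehicle 2 and CCl4 4 (up to 0.127). For Loxl3 it was vehicle 4, CCl4 1, CCl4 2 or CCl4 3 (up to 0.0682). Pcolce2, an enhancer of procollagen cleavage, fell from 117 to 20.8 CPM (log2 fold change -2.49, adjusted p = 3.08e-05, edgeR), and the prolyl hydroxylase subunit P4ha2 from 35.1 to 10.6 CPM. Serpinh1, the collagen-specific chaperone Hsp47, was at 1.80, 2.04, 1.19 and 1.52 CPM in vehicle and 2.13, 1.70, 5.25 and 2.85 CPM in CCl4 libraries and did not pass (adjusted p = 0.187, edgeR).

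Of 21 genes for collagen uptake and degradation and its control, 9 rose and 1 fell. The 9 include Timp1, which encodes an inhibitor of collagenases and rose from 0.274 to 4.13 CPM. Mmp8 is also counted in the neutrophil list. The lysosomal protease gene Ctsd rose from 4248 to 25270 CPM, the collagenase gene Mmp8 from 5.61 to 30.9 CPM and Mmp14, which encodes a membrane collagenase, from 19.3 to 93.7 CPM (log2 fold changes 2.57, 2.46 and 2.28). Mrc1, for the mannose receptor that takes up collagen fragments, fell from 483 to 289 CPM (log2 fold change -0.74, adjusted p = 0.0262, edgeR), which leaving out any 1 of vehicle 1, vehicle 3, vehicle 4, CCl4 1 and CCl4 4 undid (up to 0.0932). Ctsb, the most abundant of the list per length, did not pass. Of 10 tested collagen receptors 1 rose, Cd36, from 122 to 551 CPM, and Lair1, an inhibitory receptor, was at 216 and 224 CPM. Of 13 receptors for fibronectin and thrombospondin 5 rose and 0 fell. They included Cd36, Sdc1 (2.10 to 165 CPM) and the fibronectin-binding integrin chain Itga4 (53.8 to 95.9 CPM), while Cd47 was at 472 and 450 CPM.

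Of 55 other tested matrix genes 7 rose and 5 fell, with a median log2 fold change of 0.04. Ltbp3, a binding protein of latent TGF-beta, rose from 2.86 to 14.96 CPM, the laminin chain gene Lamc3 from 0.321 to 4.16 CPM and Podn, for the proteoglycan podocan, from 0.229 to 3.49 CPM. Nid2, for the basement membrane protein nidogen 2, fell from 56.2 to 14.3 CPM, Ltbp1 from 43.8 to 12.99 CPM and Efemp2, for an elastic fibre protein, from 31.1 to 18.6 CPM. Srgn, per length the most abundant gene of that list, did not pass (362 and 458 CPM).

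Markers of other cells that can express collagens moved in opposite directions. Of 26 tested stellate and fibroblast markers 4 rose and 9 fell, and the list summed to between 166 and 414 CPM in vehicle and 159 and 197 CPM in CCl4 libraries. Lrat, the vitamin A-storing enzyme of quiescent stellate cells, was at 10.7, 19.6, 6.21 and 15.6 CPM in vehicle and at 2.27, 2.13, 2.44 and 4.04 CPM in CCl4 libraries (log2 fold change -2.26, adjusted p = 0.00129, edgeR). Reln, Rgs5, Colec11 and Vipr1 also fell, by 1.80, 2.64, 3.01 and 2.38 on the log2 scale, and leaving out any 1 of vehicle 2, vehicle 4, CCl4 1, CCl4 2 and CCl4 3 undid the Reln call (adjusted p up to 0.106, edgeR). Their highest vehicle library was vehicle 2, as it was for Dcn and Lum. This did not hold for Ednrb, per length the most abundant gene of the list, which was at 98.4 CPM in vehicle 2 and 164 CPM in vehicle 4. Ednrb fell too (log2 fold change -1.59, adjusted p = 0.0116, edgeR), with adjusted p up to 0.0538 when 1 library was left out. Acta2, the smooth muscle actin of activated stellate cells, and Pdgfrb did not pass (log2 fold changes 1.06 and 0.45). The 4 that rose were Hgf and Cd34, which are known from several cell types, Pi16 and Fbln2. Pi16 had a log2 fold change of 1.25 (adjusted p = 0.0220, edgeR), and up to 0.0663 when 1 library was left out. Fbln2 had a log2 fold change of 1.49 (adjusted p = 0.0422, edgeR), with overlapping groups.

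Of 18 mesothelial markers, genes of the cells that cover the liver surface, 12 rose and 0 fell. Their sum was between 78.2 and 221 CPM in vehicle and 494 and 852 CPM in CCl4 libraries. Slpi, a protease inhibitor also made by other cells, took 227 to 746 CPM of the CCl4 sums. Msln, for mesothelin, was at 2.60, 0.325, 0.949 and 3.08 CPM in vehicle and at 15.5, 14.9, 52.2 and 15.7 CPM in CCl4 libraries (log2 fold change 3.80, adjusted p = 0.00160, edgeR). Upk3b was at 0.356 to 2.52 CPM in vehicle and 12.7 to 46.0 CPM in CCl4 libraries. Both were highest in CCl4 3, the library in which Col1a1, Col1a2, Col3a1, Col5a2, Col6a1, Col6a2, Col6a6 and Loxl1 were highest. Of the 12 mesothelial markers that rose, Wt1 was highest in CCl4 4, Slpi in CCl4 2 and the others in CCl4 3. Slpi in CCl4 3 was the lowest of the CCl4 libraries. Genes of other lists, such as Ctsd and Ahsg, were highest in CCl4 3 too. None of the listed stellate or mesothelial markers was at 0 in all libraries. Their part in the result was not tested, and in such sorted bulk samples fewer cells of a type and less RNA per cell cannot be told apart.

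**Figure D4:**
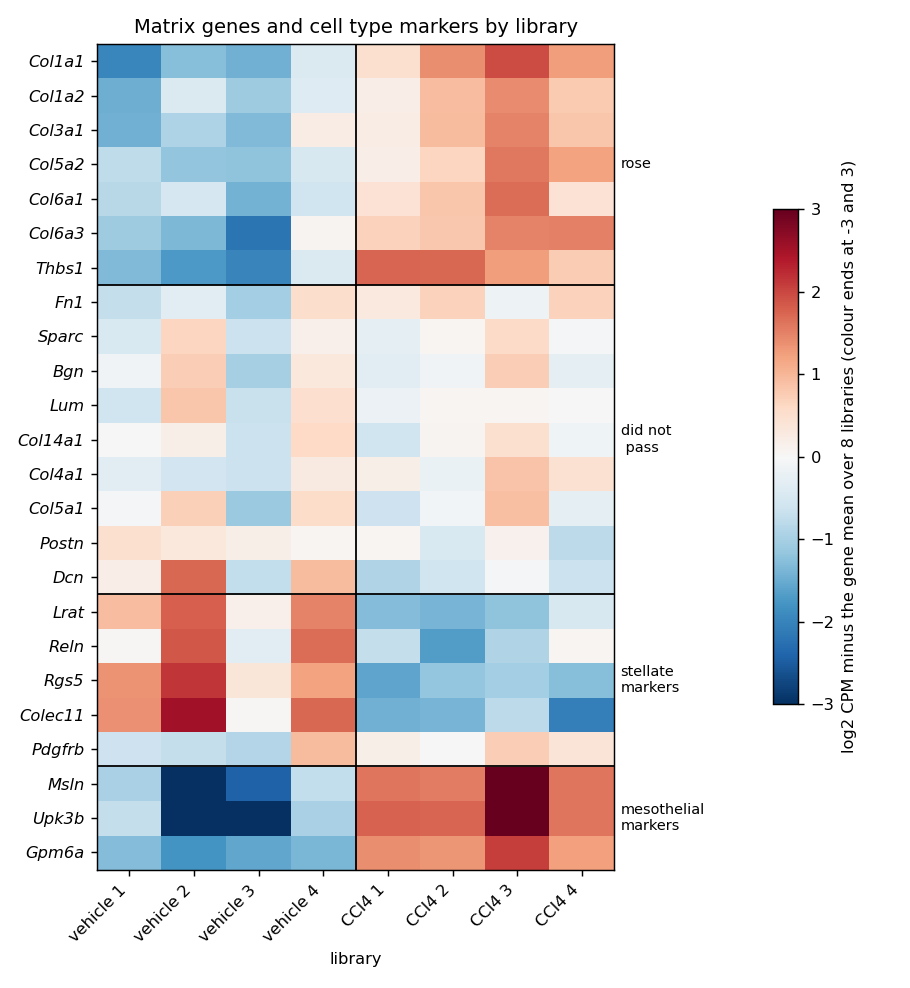
Log2 CPM minus the gene's mean over the 8 libraries (colour, ending at -3 and 3) for 7 genes that rose in every leave-out, 9 that did not pass, 5 stellate and 3 mesothelial markers (rows) in each library (columns). The marker rows were picked from longer lists. Left out are the stellate and fibroblast markers that rose (Hgf, Cd34, Pi16 and Fbln2), Acta2 and Ednrb, and mesothelial markers not highest in CCl4 3, such as Slpi and Wt1. The rows of Dcn and Lrat are darkest red in vehicle 2, and those of Col1a1, Col3a1 and Msln in CCl4 3.

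Other marker lists also differed between the groups, and their part was likewise not tested. Endothelial markers showed 1 higher and 16 lower of 22, with Pecam1, which encodes CD31, at 80.1, 43.5, 78.5 and 93.2 CPM in vehicle and 29.9, 24.4, 29.9 and 25.6 CPM in CCl4 libraries. Platelet markers showed 0 higher and 2 lower of 6 tested. Neutrophil markers showed 8 higher and 0 lower of 13, cholangiocyte markers 3 higher of 7, hepatocyte markers 1 higher and 1 lower of 16 and lymphocyte markers 0 higher and 1 lower of 12. The 3 cholangiocyte genes were Krt7, Krt19 and Spp1. Krt7 and Krt19 are also counted in the mesothelial list, and Spp1 was per length the most abundant gene of the cholangiocyte list. Within the macrophage list 2 rose and 5 fell of 12, among them Clec4f and Timd4, which are markers of resident Kupffer cells. The list for monocytes and peritoneal macrophages had 4 higher and 4 lower of 12, including Ccr2 (46.3 to 209 CPM).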

How the data were processed

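RNA of 8 sorted macrophage samples (4 vehicle, 4 CCl4) was amplified with SMART-Seq HT, per the labels' protocols, which name no strand-marking step. The submitters' processing notes name kallisto, edgeR, limma and mm10, with no versions, roles or transcript release. The authors deposited estimated counts and TPM per transcript for each sample. They also deposited FPKM per gene, and the sources used here do not say how that table was made.

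Transcripts were joined to GENCODE M21 genes by identifier without version (116405 of 117494; 13 matched with it, so transcript models can differ). The 1089 unmatched held 0.290% to 0.313% of counts. Estimated counts were summed per gene and rounded. The deposited TPM values were used for levels between genes. The 1 unnamed line of the FPKM table (0.0156% to 0.0369% of a column) was left out. kallisto divides reads among similar transcripts. Col4a1 and Col4a2, Col10a1 and Nt5dc1, and Col9a3 and Tcfl5 share exon bases on opposite strands, so reads there have no known strand.

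Samples were grouped by title. Genes passed filterByExpr (minimum count 10, minimum total 15), and the groups were compared with edgeR's quasi-likelihood test (version 4.0.16 in R 4.3.3; TMM, group only, two-sided, Benjamini-Hochberg, threshold 0.05), tested on simulated data. SE is the log2 fold change divided by the square root of F. Single values were compared by exact permutation over samples. The members, lists and tests were chosen with earlier results of these data known. Values are given for members that passed, the 10 most abundant by TPM of those that did not, and untested members with 10 or more counts. In each list the rule picked up to 3 called genes per direction and the most abundant, but values are given for only some of these. Among those without values are Upk1b, Lrrn4, Gpm6a, Clec4g, Cdh5, Dnase1l3, Fcgr2b, Alb, Hp, Trf, S100a8, Elane and Mpo. Other genes, among them Col4a2, Col5a1, Col13a1, Col18a1, Thbs2, Tnc, Fbn1, Loxl2, Lrat, Reln, Msln, Upk3b, Pdgfrb, Acta2, Plod2, Adgre1, Pecam1 and Serpinh1, were named after their values were seen. Alternatives were DESeq2 1.42.0, other size factors, no filter, limma-voom and FPKM tests (limma 3.58.1; log2 of FPKM plus 1 or 0.1), length-scaled counts, a replicate block, coding transcripts alone and leaving out libraries.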

Additional observations from a re-analysis of the deposited data

Results flagged for a closer look

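In each group of 4, the highest or lowest value was compared with its gap to the next, over the group's range. Of 84 such groups 4 held a value that stood apart, and chance flags about 1 in 20 groups. Bgn in CCl4 3 was at 27.98 CPM, against 13.46 to 15.62 CPM in the other CCl4 libraries. CCl4 3 is also the library with the highest Col1a1, Col3a1 and Msln, and what these share was not tested. Thbs2 in vehicle 4 was at 5.80 CPM, against 2.41 to 2.80 CPM in the other vehicle libraries. The share of Postn counts on transcript Postn-204 was 64.49% in CCl4 1 and 85.68% to 89.94% in the other CCl4 libraries. The share of Col20a1 counts on Col20a1-201 was 31.66% in vehicle 2 and 95.76% to 100% in the other vehicle libraries; vehicle 2 is the library whose Fn1 counts lay mostly on Fn1-202.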

How the results depend on the processing

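The number of members called higher was within 1.5 times of 12 under every alternative except the FPKM tests, which gave 5 (pseudocount 1), 5 (pseudocount 0.1) and 2 (no filter), and leaving out CCl4 3. Leaving out 1 library gave 7 to 13. The number called lower, 0 by edgeR, was 2 with library size only (Dcn and Postn), 1 with upper-quartile factors, 1 without a filter and 1 without vehicle 2 and CCl4 4, and 0 to 1 when 1 library was left out. Over all genes 1358 were called higher and 953 lower. The FPKM tests gave 619, 635 and 336 higher, and without a filter 313 lower; library size only gave 1431 lower, and leaving out 1 library 1004 to 1503 higher and 578 to 1163 lower. The median of all genes moved to -0.16 under library size only and to -0.12 under upper-quartile factors. The cause of these differences was not tested.

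Direction changed under some alternatives for the genes that follow. Sparc was at -0.066 with library size only, -0.027 with upper-quartile factors and -0.063 and -0.058 in the FPKM tests (-0.067 to 0.39 leaving out 1 library). Col4a2 was at -0.030 with library size only, -0.052 and -0.17 in the FPKM tests (-0.082 to 0.47), and Col5a1 at 0.26 without vehicle 2 and CCl4 4 (-0.45 to 0.16). Bgn was at 0.027 with limma-voom and 0.34 without those 2 libraries (-0.33 to 0.24). Lum was at 0.13 without them (-0.37 to 0.13), and Col14a1 ran from -0.27 to 0.13. Vcan was at -0.74 and -1.89 in the FPKM tests and -0.39 with length-scaled counts. Loxl3 was at -0.0098 and -0.038 in the FPKM tests, although it was called higher by edgeR on counts. Lair1 was at -0.077 with library size only, -0.035 with upper-quartile factors and -0.053 on coding transcripts. Cd47 was at 0.12 in the FPKM tests, 0.021 with length-scaled counts and 0.011 without vehicle 2 and CCl4 4. Leaving out 1 library moved Lair1 from -0.047 to 0.12, Trf from -0.20 to 0.0067, the log2 ratio of Col6a1 to Col6a2 from -0.015 to 0.38 and the Col20a1-201 share difference from -9.89 to 12.9 percentage points.

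The groups share replicate numbers, but the deviations of same-numbered libraries correlated at 0.02, -0.24, 0.04 and -0.17, and no library correlated best with its own number. The labels do not say that the numbers pair samples, and these correlations cannot exclude that same-numbered samples were handled together. With the replicate block 8 members were called higher and 0 lower, and 1281 genes higher and 829 lower. Fn1 was gained (log2 fold change 0.77, adjusted p = 0.0315, edgeR), and Col6a2, Col6a6, Col15a1, Lox and Loxl1 were lost (adjusted p = 0.107, 0.0563, 0.0652, 0.0610 and 0.0724). Low counts limit Lox, Loxl1, Col6a6, Col15a1 and the 10 untested collagens. The 3-count floor given for Lox covers counting error only. Of the 72 list genes followed through the alternatives, 37 passed by edgeR on counts but missed the threshold in at least 1 alternative. The 72 also include genes that did not pass to begin with, such as Ppib, Ctsb, Lair1, Cd47 and Srgn, so the share lost among called genes is larger than 37 of 72.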
